A study of Mus musculus and Homo sapiens with 81 samples.

Results

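The 10 genes described here, Slc16a3, Bnip3, Car9, Aldoc, Pgk1, Ldha, Pdk1, Vegfa, Ndrg1 and Slc2a1, act in glycolysis or belong to the transcripts that low oxygen raises. They were chosen by name, as 10 of the 23336 genes in the mouse count table, and by their upper-case symbols (CA9 for Car9) among the 23227 genes in each of the 4 human tables. The choice was made with results of these data in view, because Slc16a3 and Bnip3 had been among the largest falls in Control B16 cells given IFNb or IFNbTNFa. Those contrasts are therefore given as values with no test, and other contrasts of B16 Control cells share the same Control vehicle libraries. A high level in those vehicle libraries would favour a fall of Slc16a3 and Bnip3 in every Control contrast against vehicle. The same libraries also enter the B16 genotype difference in vehicle cells and every B16 interaction with genotype. All 10 genes passed the filter on low counts in B16, A375, A549 and HT29 cells. In MelJuSo cells 9 of 10 passed, and CA9 had 0 to 2 counts per library.

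Cells short of oxygen stabilise the alpha subunit of hypoxia-inducible factor (HIF), which otherwise is hydroxylated by the EGLN enzymes and destroyed through VHL. HIF then binds a short DNA core, ACGTG or GCGTG, and raises genes for glucose uptake, glycolysis, lactate export, pH control and blood vessel growth. Many tumour lines express these genes in ordinary culture too, because glycolysis also serves growth. Interferons signal through JAK kinases and STAT factors, and PTPN2 is a phosphatase that removes phosphate from both.

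The Ptpn2ko cells expressed Cas9 and were infected with a lentivirus carrying 1 guide against Ptpn2 (Ptpn2ko); the Control cells of each line carried Cas9 and 1 non-targeting guide, so each genotype rests on 1 guide in 1 line. B16 is a mouse melanoma line, A375 and MelJuSo are human melanoma lines, A549 is a human lung cancer line and HT29 a human colon cancer line. B16 cells of both genotypes received IFNb at 1000 U/mL, IFNg at 100 ng/mL, TNFa at 10 ng/mL, the pairs IFNbIFNg, IFNbTNFa and IFNgTNFa, or vehicle (PBS with BSA), for 48 h. The human lines received IFNg at 100 ng/mL or vehicle. Polyadenylated RNA was sequenced with 3 libraries per group in B16, MelJuSo and A375, except 2 A375 Control vehicle libraries, and 2 per group in A549 and HT29. The labels do not say that replicates were separate cultures, so the p-values cover the spread among these libraries alone, which may be technical. The oxygen level is not among the labels used here.

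Library totals ran from 3498860 to 6432517 counts in the 42 B16 libraries, and from 4191317 to 9605776 in the 39 human libraries. Ptpn2 was lower in every Ptpn2ko library of B16, with 8.23 to 16.4 CPM (counts per 1000000 counts of the scaled library) in Ptpn2ko libraries against 44.7 to 61.9 CPM in Control libraries. PTPN2 was also lower in Ptpn2ko than in Control libraries of A549, HT29 and MelJuSo under both treatments. The A375 vehicle libraries disagreed with their genotype labels, with 24.1 to 25.1 CPM of PTPN2 in the libraries labelled Ptpn2ko against 11.9 to 12.1 CPM in those labelled Control. Of the 42 B16 libraries, 5 stood apart from their groups, and all 5 had received TNFa or a cytokine pair. The Spearman correlation over genes between transcript length and a library's log2 CPM relative to the mean of all B16 libraries moved with treatment. RNA quality can move this correlation, but no measure of RNA quality is among the labels used here. RNA quality and a response to treatment cannot be told apart in it. The correlation was -0.265 to -0.0602 under TNFa, -0.286 to -0.0255 under IFNbIFNg and -0.282 to -0.137 under IFNgTNFa in Ptpn2ko cells, against 0.229 to 0.266 under vehicle. In Control cells it was -0.345 to -0.282 under TNFa, -0.425 to -0.195 under IFNbIFNg and -0.332 to -0.189 under IFNgTNFa, against 0.0769 to 0.132 under vehicle, below the Ptpn2ko vehicle libraries. Under IFNb it was 0.254 to 0.294 in Ptpn2ko and 0.278 to 0.326 in Control libraries, and under IFNg 0.0967 to 0.190 in Ptpn2ko and 0.189 to 0.258 in Control libraries. With this trend on length removed, the calls of the 10 genes against vehicle were the same except for Pgk1 under IFNgTNFa and Bnip3 under TNFa in Ptpn2ko cells, which were added, and Slc16a3 under TNFa in Control cells, which was lost. All 7 melanocyte markers reached 1 CPM in B16 and MelJuSo. In A375, SOX10 had 67.7 to 139 CPM but PMEL only 0.382 to 1.12 CPM. Of the 7 lung line markers, 5 reached 1 CPM in A549, with KRT8 at 1610 to 2030 CPM and a summed level of 4200 to 6270 CPM, while the lung-defining NKX2-1 and SFTPB stayed at or under 0.310 CPM. In HT29 5 of the same 7 reached 1 CPM too, with KRT8 at 2680 to 3460 CPM and a sum of 5330 to 6690 CPM. This list therefore does not set A549 apart from HT29. The colon gene CDH17 had 10.8 to 27.5 CPM in A549. In HT29 the colon genes CDX2 and CDH17 reached no more than 1.46 and 1.47 CPM, whereas KRT20 had 250 to 518 CPM. In these bulk samples, fewer cells of a type and less RNA per cell cannot be told apart.

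Promoter DNA of 4 mouse genes is shown first, because Slc16a3, Bnip3 and Ldha moved in B16 cells. In Ptpn2ko cells Vegfa fell with them under IFNb, IFNbTNFa and IFNbIFNg but was not called under IFNg or IFNgTNFa. The sequences are the 250 bases before an annotated start of each gene, from RefSeq on GRCm38.p6, written 5′ to 3′ on the gene's strand. Capitals mark the cores ACGTG and GCGTG on either strand (a core on the opposite strand reads CACGT or CACGC here). The letters CACGTG hold a core on each strand and were counted as 2 overlapping matches.
Slc16a3: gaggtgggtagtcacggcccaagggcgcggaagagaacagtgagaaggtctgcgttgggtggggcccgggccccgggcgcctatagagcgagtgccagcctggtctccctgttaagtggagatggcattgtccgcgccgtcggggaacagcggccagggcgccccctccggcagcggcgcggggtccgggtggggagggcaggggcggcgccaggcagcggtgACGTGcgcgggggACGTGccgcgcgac
Bnip3: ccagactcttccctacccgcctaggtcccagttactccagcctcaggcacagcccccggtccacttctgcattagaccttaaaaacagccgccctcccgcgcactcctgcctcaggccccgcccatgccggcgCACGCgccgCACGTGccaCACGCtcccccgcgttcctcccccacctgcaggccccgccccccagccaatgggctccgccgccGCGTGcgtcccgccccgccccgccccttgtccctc
Ldha: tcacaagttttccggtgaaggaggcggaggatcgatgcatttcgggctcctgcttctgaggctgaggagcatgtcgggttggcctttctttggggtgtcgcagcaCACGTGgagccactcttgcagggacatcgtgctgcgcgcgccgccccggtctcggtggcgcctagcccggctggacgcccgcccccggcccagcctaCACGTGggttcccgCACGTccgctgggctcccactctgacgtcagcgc
Vegfa: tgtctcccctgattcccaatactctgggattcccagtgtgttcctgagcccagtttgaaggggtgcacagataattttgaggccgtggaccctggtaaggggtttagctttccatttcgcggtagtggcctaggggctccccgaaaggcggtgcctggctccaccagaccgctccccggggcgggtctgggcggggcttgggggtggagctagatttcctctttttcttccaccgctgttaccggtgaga
The Slc16a3 sequence lies at chr11:120948817-120949066 on the plus strand and holds 2 ACGTG matches. That of Bnip3 lies at chr7:138909507-138909756 on the minus strand and holds 2 ACGTG and 3 GCGTG matches. The Ldha stretch is chr7:46845554-46845803 on the plus strand and holds 5 ACGTG matches. A second annotated Ldha start has 0 ACGTG and 1 GCGTG match in the 250 bases before it. The Vegfa stretch is chr17:46032378-46032627 on the minus strand and holds neither core. A second annotated Vegfa start, which lies inside the gene, has 1 ACGTG and 1 GCGTG match in the 250 bases before it. Windows of 300 bases (250 before and 50 after a start) were found for 9 of the 10 genes, and 8 of the 9 held ACGTG, all but Pdk1. Over all 32851 windows, 19.6% held ACGTG, and 21.8% of 27025 genes had such a window. With GCGTG added, 9 of 9 held a core, against 46.7% of all genes. Among the genes not printed, the 250 bases before either annotated Pdk1 start held 0 ACGTG, and its mean CPM spanned 5.92-fold over the B16 groups. Those of Pgk1 held 2 ACGTG at a span of 1.7-fold. Those of Slc2a1 held 1 ACGTG and 1 GCGTG at a span of 1.71-fold. These matches describe letters in a window and were not tested as binding sites or against the changes in level.

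In vehicle-treated B16 cells, Ldha, the enzyme that turns pyruvate into lactate, had the highest level per length of the 10 genes. It stood at 222 ± 11.6 CPM per kilobase of exon in Ptpn2ko cells and 238 ± 9.16 in Control cells (SD, n = 3 each). Pgk1, which makes the first ATP of glycolysis, followed at 50.3 ± 1.72 CPM per kilobase in Ptpn2ko cells and 53.8 ± 3.04 in Control cells. Slc2a1, Bnip3, Ndrg1, Aldoc and Slc16a3 came next, in that order in both genotypes, between 17.2 and 28.3 CPM per kilobase in Ptpn2ko cells and between 16.6 and 26.6 in Control cells. In Ptpn2ko cells Bnip3 and Ndrg1 differed by less than the larger of their SDs, and so did Aldoc and Slc16a3; in Control cells these neighbours were further apart than that. Vegfa, Pdk1 and Car9 were lowest per length, and in Control cells their order lay within their SDs. Vegfa, a secreted growth factor for blood vessels, had 62.7, 61.8 and 59.5 CPM in the 3 Ptpn2ko vehicle libraries against 43.6, 42.5 and 53.3 CPM in the 3 Control vehicle libraries. It was the 1 gene of the 10 called between genotypes in vehicle cells (log2 fold change 0.39 ± 0.09 SE, edgeR adjusted p = 0.0096), where 3.07% of all 11726 tested genes were called. A gene is called here when its edgeR quasi-likelihood p, adjusted by Benjamini-Hochberg over all tested genes of the line, is under 0.05. The call ended without Control vehicle replicate 1 (0.35, edgeR adjusted p = 0.071) or replicate 2 (0.33, edgeR adjusted p = 0.083). The other 9 genes differed by -0.35 to 0.09 and were not called. The fit of the compared groups only also called Ldha (-0.12, edgeR adjusted p = 0.022).

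**Figure D1:**
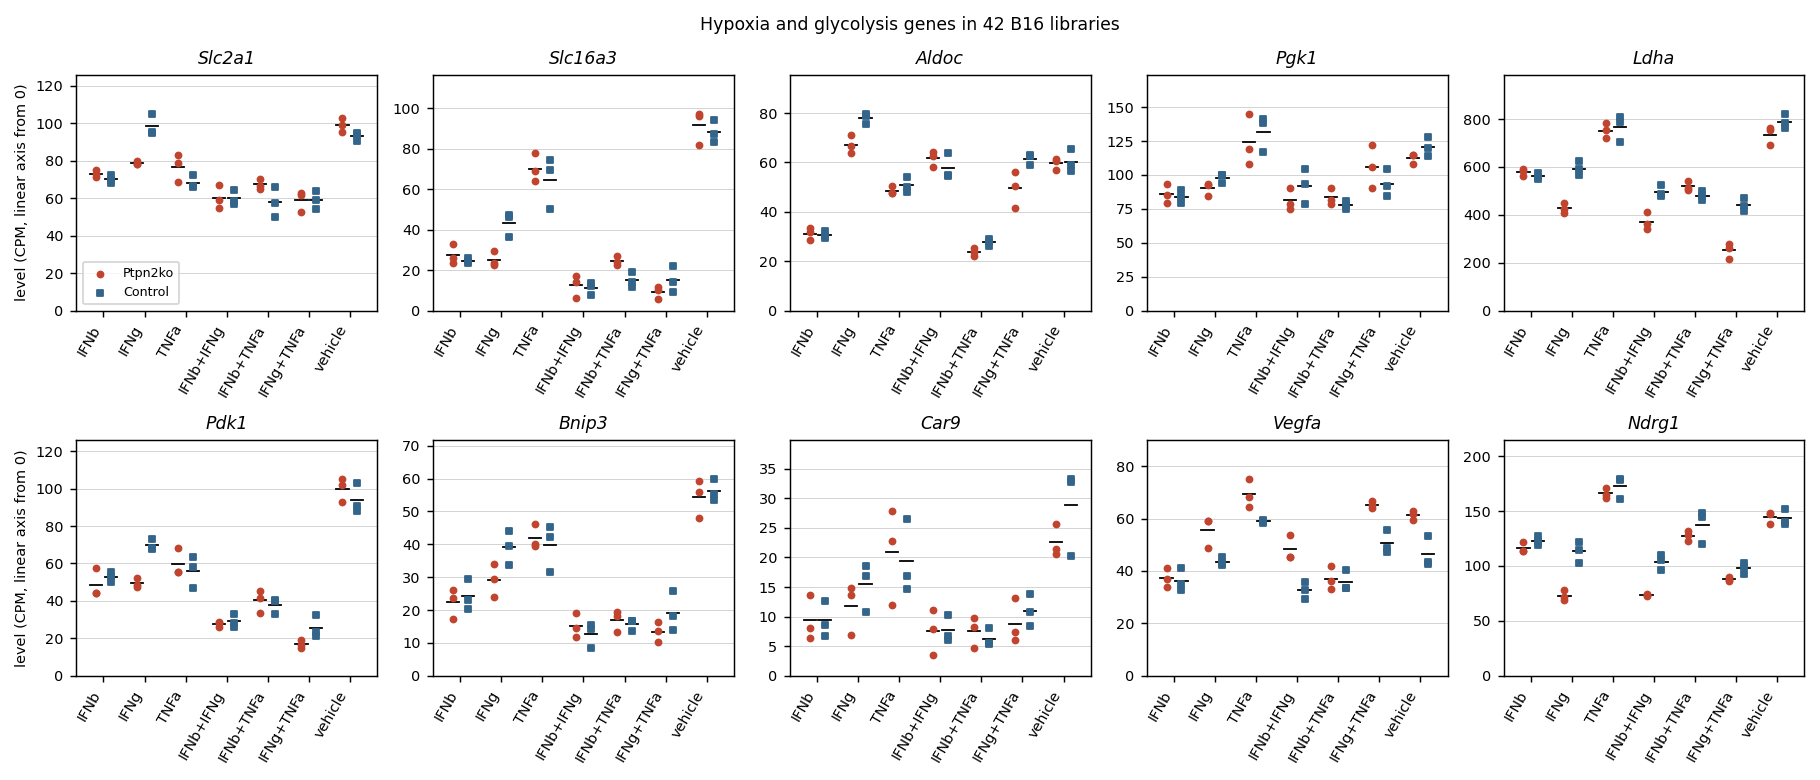
CPM of each of the 10 genes in every B16 library, 1 panel per gene, by treatment with vehicle at the right and Ptpn2ko left of Control; short lines are group means. Slc16a3 has 81.9 to 97.2 CPM in Ptpn2ko vehicle libraries and 5.61 to 11.8 CPM in Ptpn2ko IFNgTNFa libraries.

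IFNb lowered all 10 genes in Ptpn2ko B16 cells. For each gene the 3 IFNb libraries lay below the 3 vehicle libraries, but how many of all tested genes separated so was not counted. Slc16a3 (MCT4), which exports lactate from glycolytic cells, had 33.0, 23.6 and 26.1 CPM in Ptpn2ko IFNb libraries against 96.0, 97.2 and 81.9 CPM in Ptpn2ko vehicle libraries. Its log2 fold change was -1.73 ± 0.20 (edgeR adjusted p = 3.4e-08). Bnip3, a mitochondrial outer membrane protein that promotes removal of mitochondria, had 26.1, 17.4 and 23.6 CPM in Ptpn2ko IFNb libraries against 59.2, 48.1 and 56.0 CPM in Ptpn2ko vehicle libraries. It fell by 1.28 ± 0.18 on the log2 scale (edgeR adjusted p = 1.2e-06). Pdk1, a kinase that switches off pyruvate dehydrogenase and so keeps pyruvate out of mitochondria, fell by 1.03 ± 0.11 (edgeR adjusted p = 6e-11). Aldoc, a glycolytic aldolase, fell by 0.93 ± 0.09 (edgeR adjusted p = 4.6e-12), with 33.3, 28.5 and 31.8 CPM in Ptpn2ko IFNb libraries against 61.4, 60.8 and 56.8 CPM in Ptpn2ko vehicle libraries. Car9, a membrane carbonic anhydrase that controls pH, fell by 1.26 ± 0.36 (edgeR adjusted p = 0.0098), but not as a call without IFNb replicate 2 (-1.07, edgeR adjusted p = 0.053). The falls of Vegfa (-0.71), Slc2a1 (GLUT1, the main glucose importer; -0.44), Pgk1 (-0.39), Ldha (-0.34) and Ndrg1 (a stress-response gene; -0.30) were smaller. All 10 of 10 were called lower, where 27.7% of tested genes were called in either direction and 13.0% were called lower. The median log2 fold change was -0.82 over the 10 genes and 0.01 over all tested genes.

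The same contrast in Control cells, which chose Slc16a3 and Bnip3, had 10 negative values with a median of -0.68. Slc16a3 had 26.0, 24.4 and 23.5 CPM in Control IFNb libraries against 94.4, 87.1 and 83.5 CPM in Control vehicle libraries. Its log2 fold change was -1.84 ± 0.20, beside -1.73 ± 0.20 in Ptpn2ko cells. The other 9 genes lay between -1.60 ± 0.34 (Car9) and -0.22 ± 0.06 (Ndrg1) in Control cells. Genotype differences under IFNb use the Control IFNb libraries behind the choice of Slc16a3 and Bnip3, so those of Slc16a3 (0.17 ± 0.24) and Bnip3 (-0.11 ± 0.21) are given with no test. Of the other 8 genes edgeR called 0 between Ptpn2ko and Control cells under IFNb, where 0.554% of tested genes were called, with 0 at an unadjusted p under 0.05 and 0 by DESeq2, and their differences ran from -0.11 to 0.06.

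In Ptpn2ko cells given IFNbTNFa all 10 genes were called lower than in vehicle, where 38.4% of tested genes were called and 17.7% called lower. The median was -1.02 over the 10 genes and 0.01 over all tested genes. Aldoc had 22.2, 25.4 and 23.9 CPM in the Ptpn2ko IFNbTNFa libraries, its lowest group of the 14. It fell by 1.32 ± 0.09 (edgeR adjusted p = 1.9e-17). Slc16a3 fell by 1.90 ± 0.20, Bnip3 by 1.68 ± 0.19, Car9 by 1.59, Pdk1 by 1.31, Vegfa by 0.73, Slc2a1 by 0.56, Ldha by 0.50 and Pgk1 by 0.43 in Ptpn2ko cells. In Control cells, by description only, Slc16a3 was at -2.52 ± 0.22, Bnip3 at -1.84 ± 0.20 and the others between -2.23 ± 0.39 (Car9) and -0.05 ± 0.07 (Ndrg1). IFNbTNFa was not tested against IFNb. The fall of Ndrg1 in Ptpn2ko cells (-0.17 ± 0.06, edgeR adjusted p = 0.028) was not called without IFNbTNFa replicate 2 (-0.15, edgeR adjusted p = 0.12), IFNbTNFa replicate 3 (-0.17, edgeR adjusted p = 0.063) or vehicle replicates 1 or 2 (-0.16, edgeR adjusted p = 0.094 each). Between genotypes under IFNbTNFa, Slc16a3 (0.67 ± 0.27) and Bnip3 (0.12 ± 0.24) are again given with no test. Of the other 8 genes, which differed by -0.22 to 0.29, edgeR called 0, where 0.597% of tested genes were called, while 1 (Slc2a1, 0.20) had an unadjusted p under 0.05 and DESeq2 called 0.

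IFNg lowered 8 of the 10 genes in Ptpn2ko B16 cells, with no member called higher, where 59.4% of tested genes were called and 30.4% were called lower. The median was -0.85 over the 10 genes and -0.01 over all tested genes. The lactate exporter Slc16a3 had 23.4, 22.7 and 29.6 CPM in Ptpn2ko IFNg libraries, below every vehicle library, and fell by 1.85 ± 0.20 (edgeR adjusted p = 1.2e-09). Pdk1 had 47.7, 48.6 and 52.1 CPM in Ptpn2ko IFNg libraries against 102, 105 and 92.7 CPM in Ptpn2ko vehicle libraries. It fell by 1.01 ± 0.11 (edgeR adjusted p = 9.8e-12). Ndrg1 fell by 0.98 ± 0.07 (edgeR adjusted p = 5e-18). Bnip3 fell by 0.91, Ldha by 0.78, Slc2a1 by 0.33 and Pgk1 by 0.32. Car9 fell by 0.94 ± 0.34 (edgeR adjusted p = 0.02), a call lost without IFNg replicate 2 (-0.66, edgeR adjusted p = 0.13) or vehicle replicate 1 (-0.83, edgeR adjusted p = 0.071). Aldoc differed from the others, with 71.3, 63.7 and 66.7 CPM in Ptpn2ko IFNg libraries, all above the vehicle libraries, though not called (0.17 ± 0.08, edgeR adjusted p = 0.062). Vegfa was not called either (-0.14 ± 0.09, edgeR adjusted p = 0.19).

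In Control cells IFNg lowered 7 of the 10 genes and raised Aldoc, where 37.9% of tested genes were called. Aldoc had 79.7, 75.6 and 79.0 CPM in Control IFNg libraries against 56.5, 58.9 and 65.4 CPM in Control vehicle libraries, a rise of 0.37 ± 0.08 (edgeR adjusted p = 0.00011). Slc2a1 (0.07 ± 0.07) and Vegfa (-0.10 ± 0.10) were not called. Slc16a3 had 47.4, 36.6 and 46.0 CPM in Control IFNg libraries and fell by 1.03 ± 0.18 (edgeR adjusted p = 2.1e-05). Slc16a3 and Bnip3 were chosen on falls from these same Control vehicle libraries. Their calls here and in the other Control contrasts against vehicle are therefore not independent of the choice. Falls of 0.31 to 0.92 were called for Pgk1, Ndrg1, Ldha, Pdk1, Bnip3 and Car9. Those of Bnip3 (-0.44, edgeR adjusted p = 0.059, without IFNg replicate 2), Pgk1 (-0.26, edgeR adjusted p = 0.056, without vehicle replicate 3) and Car9 (-0.71 to -0.82, edgeR adjusted p = 0.068 to 0.11, without IFNg replicate 2 or vehicle replicate 1 or 3) each rested on single libraries.

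**Figure D2:**
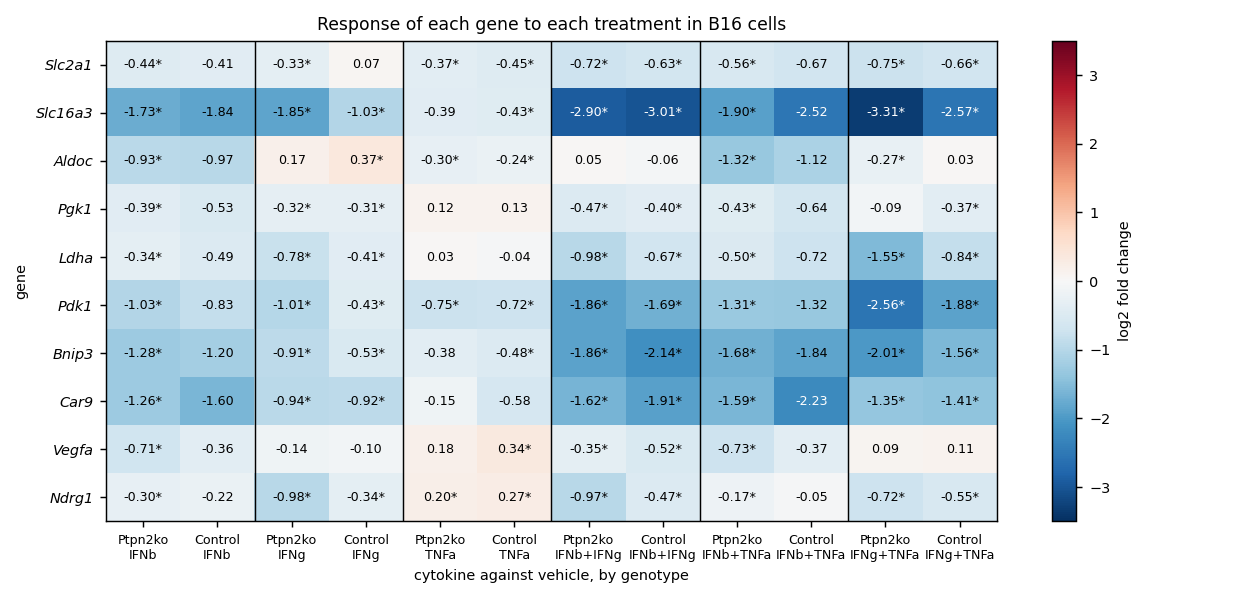
Log2 fold change of each gene against vehicle for the 6 cytokine treatments in Ptpn2ko and Control B16 cells, with an asterisk where the edgeR adjusted p is under 0.05. The Control IFNb and IFNbTNFa columns carry no asterisks because they were not tested. All Control columns share the vehicle libraries used in the choice of Slc16a3 and Bnip3. The lowest tested value is -3.31 for Slc16a3 in Ptpn2ko IFNgTNFa cells.

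TNFa alone changed fewer of the genes and in both directions. In Ptpn2ko cells 3 fell and 1 rose, where 43.5% of tested genes were called and 22.4% were called lower. Pdk1 had 68.0, 55.3 and 55.3 CPM in Ptpn2ko TNFa libraries and fell by 0.75 ± 0.10 (edgeR adjusted p = 1.4e-07). Slc2a1 fell by 0.37 ± 0.08 and Aldoc by 0.30 ± 0.09. Ndrg1 rose by 0.20 ± 0.06 (edgeR adjusted p = 0.0091), a call lost without TNFa replicate 2 (0.16, edgeR adjusted p = 0.095) or vehicle replicate 3 (0.14, edgeR adjusted p = 0.11). Not called were Slc16a3 (-0.39 ± 0.17), Bnip3 (-0.38 ± 0.16), Vegfa (0.18), Car9 (-0.15), Pgk1 (0.12) and Ldha (0.03). Without the 5 libraries that stood apart, Slc16a3 (-0.50), Bnip3 (-0.48) and Pgk1 (0.18) were called as well.

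In Control cells TNFa lowered 5 of the genes and raised 2, where 47.7% of tested genes were called. Pdk1 fell by 0.72 ± 0.11 and Slc2a1 by 0.45 ± 0.08, and Car9 (-0.58 ± 0.31), Pgk1 (0.13) and Ldha (-0.04) were not called. Vegfa rose by 0.34 ± 0.10 (edgeR adjusted p = 0.0036), with 58.1, 59.0 and 59.5 CPM in Control TNFa libraries, and Ndrg1 rose by 0.27 ± 0.06. The rise of Vegfa was not called without vehicle replicate 1 (0.26, edgeR adjusted p = 0.052) or replicate 2 (0.24, edgeR adjusted p = 0.067). The falls of Aldoc (-0.24), Bnip3 (-0.48) and Slc16a3 (-0.43) were lost without TNFa replicate 1 (-0.21, -0.36 and -0.30, edgeR adjusted p = 0.062, 0.095 and 0.19), which left 4 of 10 called; Aldoc was also lost without vehicle replicate 3 (-0.18, edgeR adjusted p = 0.12) and Slc16a3 without TNFa replicate 2 or any 1 vehicle library (-0.42 to -0.48, edgeR adjusted p = 0.052 to 0.087). No gene of the 10 was called between genotypes under TNFa by edgeR or DESeq2, where 0.938% of tested genes were called, and 1 (Vegfa, 0.24) had an unadjusted p under 0.05; the differences ran from -0.11 to 0.24. The genotype by TNFa interaction ran from -0.16 ± 0.13 for Vegfa to 0.43 ± 0.44 for Car9, and the counts were 0 by both tools and 0 at an unadjusted p under 0.05, where 0.0341% of tested genes were called.

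The pair IFNgTNFa gave the lowest levels of several of the genes. Slc16a3 had 11.8, 5.61 and 9.94 CPM in Ptpn2ko IFNgTNFa libraries, 0.101 times its mean level in Ptpn2ko vehicle libraries on the fitted scale, and fell by 3.31 ± 0.23 (edgeR adjusted p = 4.1e-14). Pdk1 had 19.2, 14.8 and 16.7 CPM and fell by 2.56 ± 0.12 (edgeR adjusted p = 5.9e-24). Ldha had 279, 215 and 260 CPM in Ptpn2ko IFNgTNFa libraries against 761, 754 and 691 CPM in Ptpn2ko vehicle libraries, a fall of 1.55 ± 0.07 (edgeR adjusted p = 4.6e-26). In these 3 genes every IFNgTNFa library lay far below every vehicle library. Bnip3 fell by 2.01, Car9 by 1.35, Slc2a1 by 0.75, Ndrg1 by 0.72 and Aldoc by 0.27, so 8 of 10 were called lower, where 76.7% of tested genes were called and 37.6% were called lower. The median was -1.05 over the 10 genes and 0.03 over all tested genes. Aldoc was not called without IFNgTNFa replicate 2 (-0.16, edgeR adjusted p = 0.083). Pgk1 was not called (-0.09 ± 0.09, edgeR adjusted p = 0.41), but it was after the trend on transcript length was removed (-0.35, edgeR adjusted p = 3.2e-05) and without the 5 libraries that stood apart (-0.20, edgeR adjusted p = 0.018). Vegfa was not called (0.09 ± 0.09). In Control cells 8 of 10 were called lower, where 69.3% of tested genes were called, with Slc16a3 at -2.57 ± 0.22, Pdk1 at -1.88 ± 0.12, Bnip3 at -1.56, Car9 at -1.41, Ldha at -0.84 ± 0.06, Slc2a1 at -0.66, Ndrg1 at -0.55 and Pgk1 at -0.37. Vegfa (0.11) and Aldoc (0.03) were not called there.

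IFNbIFNg lowered 9 of the 10 genes in each genotype, and Aldoc was the exception in both. In Ptpn2ko cells 67.5% of tested genes were called and 33.4% were called lower, and in Control cells 65.4% were called. Slc16a3 had 6.41, 17.1 and 13.9 CPM in Ptpn2ko IFNbIFNg libraries and 7.59, 12.0 and 13.5 CPM in Control IFNbIFNg libraries. Its log2 fold change was -2.90 ± 0.22 in Ptpn2ko cells and -3.01 ± 0.24 in Control cells. The medians were -0.98 in Ptpn2ko cells and -0.65 in Control cells, beside 0.01 and 0.04 over all tested genes. In Ptpn2ko cells Pdk1 and Bnip3 were both at -1.86, Car9 at -1.62, Ldha at -0.98, Ndrg1 at -0.97, Slc2a1 at -0.72, Pgk1 at -0.47 and Vegfa at -0.35. In Control cells Bnip3 was at -2.14, Car9 at -1.91, Pdk1 at -1.69, Ldha at -0.67, Slc2a1 at -0.63, Vegfa at -0.52, Ndrg1 at -0.47 and Pgk1 at -0.40. Aldoc was not called in Ptpn2ko cells (0.05 ± 0.08) or in Control cells (-0.06 ± 0.08).

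Treatments were also compared directly. Within Ptpn2ko cells IFNg set against IFNb raised 2 of the genes and lowered 2, where 54.5% of tested genes were called. Aldoc was higher under IFNg by 1.10 ± 0.09 (edgeR adjusted p = 2.4e-15) and Vegfa by 0.57 ± 0.10, whereas Ndrg1 was lower by 0.68 ± 0.07 and Ldha by 0.44 ± 0.06. Slc16a3 differed by -0.12 ± 0.24 and was not called, nor were Bnip3 (0.37 ± 0.20), Car9 (0.32), Slc2a1 (0.11), Pgk1 (0.06) and Pdk1 (0.02). Bnip3 was called with no filter on low counts (0.40, edgeR adjusted p = 0.006) and in the fit of the compared groups only (0.38, edgeR adjusted p = 0.0058). In Control cells, by description, Slc16a3 was 0.81 ± 0.21 and Aldoc 1.34 ± 0.09 higher under IFNg than under IFNb.

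IFNbIFNg against IFNg alone lowered 5 of the genes in Ptpn2ko cells, where 32.6% of tested genes were called. These were Slc16a3 (-1.05 ± 0.27), Bnip3 (-0.95 ± 0.21), Pdk1 (-0.85 ± 0.13), Slc2a1 (-0.39 ± 0.08) and Ldha (-0.20 ± 0.07). Car9 (-0.68 ± 0.43), Vegfa (-0.21), Pgk1 (-0.15), Aldoc (-0.13) and Ndrg1 (0.01) were not called. Ldha was not called without IFNbIFNg replicate 1 (-0.16, edgeR adjusted p = 0.082) or IFNg replicate 1 (-0.17, edgeR adjusted p = 0.058). In Control cells 8 were lower, where 57.9% of tested genes were called, with Slc16a3 at -1.98 ± 0.26, Bnip3 at -1.61 ± 0.21, Pdk1 at -1.27, Slc2a1 at -0.71, Aldoc at -0.43, Vegfa at -0.42 and Ldha at -0.26, while Ndrg1 (-0.13) and Pgk1 (-0.09) were not called. The Control call of Car9 (-0.99 ± 0.41) ended without any 1 of IFNbIFNg replicates 1 and 2 and IFNg replicates 1 and 3 (-0.89 to -0.94, edgeR adjusted p = 0.092 to 0.11) and without the 5 libraries that stood apart (-1.21, edgeR adjusted p = 0.11).

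IFNgTNFa against IFNg alone lowered 6 of the genes and raised 3 in Ptpn2ko cells, where 61.7% of tested genes were called. Pdk1 (-1.54 ± 0.14), Slc16a3 (-1.46 ± 0.29), Bnip3 (-1.10 ± 0.22) and Ldha (-0.76 ± 0.07) were the largest falls, followed by Aldoc (-0.44) and Slc2a1 (-0.41), and Car9 was not called (-0.41 ± 0.41). Ndrg1 rose by 0.27 ± 0.07 (edgeR adjusted p = 0.0016). The small rises of Pgk1 (0.24) and Vegfa (0.23) were each lost without any 1 of 4 libraries. For Pgk1 these were IFNg replicates 2 and 3 and IFNgTNFa replicates 1 and 3 (0.11 to 0.24, edgeR adjusted p = 0.068 to 0.36), and for Vegfa IFNg replicate 2 and all 3 IFNgTNFa replicates (0.13 to 0.22, edgeR adjusted p = 0.074 to 0.29). The value of Pgk1 was 0.02 after the trend on length was removed. In Control cells 7 were lower and none higher, where 61.5% of tested genes were called, with Slc16a3 at -1.54 ± 0.24, Pdk1 at -1.45 ± 0.12, Bnip3 at -1.03, Slc2a1 at -0.74, Ldha at -0.43 and Aldoc at -0.34. Car9 (-0.49 ± 0.37), Vegfa (0.21) and Pgk1 (-0.06) were not called. Among the 7, Ndrg1 (-0.21 ± 0.07) was not called without IFNgTNFa replicate 2 (-0.17, edgeR adjusted p = 0.057) or after the trend on length was removed (-0.07, edgeR adjusted p = 0.36).

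Under IFNg, 6 of the 10 genes were lower and Vegfa was higher in Ptpn2ko than in Control B16 cells, where 34.9% of tested genes were called. Slc16a3 had 23.4 to 29.6 CPM in Ptpn2ko IFNg libraries against 36.6 to 47.4 CPM in Control IFNg libraries, with no overlap, a difference of -0.76 ± 0.22 (edgeR adjusted p = 0.0055). Ndrg1 had 71.5, 68.9 and 78.2 CPM in Ptpn2ko IFNg libraries against 115, 103 and 122 CPM in Control IFNg libraries, and differed by -0.63 ± 0.07 (edgeR adjusted p = 1.5e-10). Ldha had 449, 408 and 424 CPM in Ptpn2ko IFNg libraries against 591, 567 and 623 CPM in Control IFNg libraries (-0.47 ± 0.06). Pdk1 (-0.49 ± 0.11), Slc2a1 (-0.32 ± 0.08) and Aldoc (-0.22 ± 0.08) were lower too, and Vegfa was higher (0.36 ± 0.10, edgeR adjusted p = 0.0026). Bnip3 (-0.42 ± 0.18), Car9 (-0.37) and Pgk1 (-0.12) were not called, though Bnip3 was in the fit of the compared groups only (-0.41, edgeR adjusted p = 0.00081) and with no filter on low counts (-0.41, edgeR adjusted p = 0.0016). The Aldoc call (edgeR adjusted p = 0.025) ended without any 1 of Ptpn2ko IFNg replicates 2 and 3 and Control IFNg replicates 1 and 3 (-0.18 to -0.20, edgeR adjusted p = 0.065 to 0.12), and by DESeq2 (adjusted p = 0.078).

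The response to IFNg itself differed between genotypes for 5 of the 10 genes, where 21.5% of tested genes were called for this interaction. Each of the 5 had a lower log2 response in Ptpn2ko than in Control cells: Slc16a3 by 0.82, Ndrg1 by 0.64, Pdk1 by 0.58, Slc2a1 by 0.41 and Ldha by 0.37. Of these, Slc2a1 was called lower in Ptpn2ko cells only. The interactions of Slc16a3 and Bnip3 contain the Control vehicle libraries behind their choice, so they are not independent of it. All 10 interaction values were negative, from -0.82 ± 0.27 for Slc16a3 to -0.02 ± 0.46 for Car9, and Bnip3 (-0.38), Aldoc (-0.20), Vegfa (-0.04), Pgk1 and Car9 (-0.02 each) were not called. The Slc16a3 interaction (edgeR adjusted p = 0.027) was not called by DESeq2 (-0.81, adjusted p = 0.10) or without any 1 of 7 of its 12 libraries: Ptpn2ko IFNg replicates 1 and 2, Ptpn2ko vehicle replicates 1 and 2, Control IFNg replicates 1 and 3 and Control vehicle replicate 3 (-0.73 to -0.79, edgeR adjusted p = 0.053 to 0.088).

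With IFNgTNFa, Ldha (-0.81 ± 0.07), Pdk1 (-0.59 ± 0.15) and Aldoc (-0.31 ± 0.08) were lower and Vegfa (0.37 ± 0.09) was higher in Ptpn2ko than in Control cells, where 41.0% of tested genes were called. Slc16a3 (-0.68 ± 0.32), Bnip3 (-0.49 ± 0.23), Car9 (-0.28), Pgk1 (0.18), Ndrg1 (-0.16) and Slc2a1 (0.00) were not called by edgeR, while DESeq2 called Slc16a3 (adjusted p = 0.042) and Bnip3 (adjusted p = 0.048). The interaction was called for Ldha (-0.71 ± 0.09, edgeR adjusted p = 2.1e-08) and Pdk1 (-0.68 ± 0.18, edgeR adjusted p = 0.0034), where 26.3% were called, and the other 8 values ran from -0.74 ± 0.36 for Slc16a3 to 0.28 ± 0.13 for Pgk1. Both Pdk1 calls ended without Control IFNgTNFa replicate 1 (-0.39 and -0.47, edgeR adjusted p = 0.055 and 0.061), and the Aldoc call without Ptpn2ko IFNgTNFa replicate 2 (-0.20, edgeR adjusted p = 0.061). Without Control IFNgTNFa replicate 2, Slc16a3 (-0.94), Bnip3 (-0.68) and Ndrg1 (-0.2) were also called between genotypes. The same fit also called the interaction of Slc16a3 (-1.0) and Aldoc (-0.33). Pgk1 went the other way and was called higher in Ptpn2ko cells on leaving out either of 2 libraries. These were Control IFNgTNFa replicate 3 (0.27, edgeR adjusted p = 0.034) and Ptpn2ko IFNgTNFa replicate 2 (0.29, edgeR adjusted p = 0.016). Its interaction was called in these fits as well (0.39 and 0.4).

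With IFNbIFNg, Ndrg1 (-0.49 ± 0.07) and Ldha (-0.42 ± 0.07) were lower and Vegfa (0.56 ± 0.11) was higher in Ptpn2ko than in Control cells, where 38.4% of tested genes were called. Vegfa had 45.4, 53.9 and 45.4 CPM in Ptpn2ko IFNbIFNg libraries against 29.5, 35.7 and 32.7 CPM in Control IFNbIFNg libraries. The other 7 genes differed by -0.18 to 0.25 and were not called. The interaction was called for Ndrg1 (-0.50 ± 0.10, edgeR adjusted p = 0.00013) and Ldha (-0.32 ± 0.09, edgeR adjusted p = 0.011), where 15.4% were called, and the other 8 values ran from -0.16 to 0.29. That of Ldha ended without Ptpn2ko IFNbIFNg replicate 1 (-0.22, edgeR adjusted p = 0.11) or replicate 2 (-0.26, edgeR adjusted p = 0.066).

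The 10 genes differed in how they ran across the 14 B16 groups. Mean CPM spanned 10.1-fold for Slc16a3 and 5.92-fold for Pdk1, but 1.70-fold for Pgk1 and 1.71-fold for Slc2a1. Over the 14 group means of log2 CPM, which share libraries and scaling, the 6 pairs among Slc16a3, Bnip3, Car9 and Pdk1 had Pearson r of 0.77 to 0.97. Over all 45 pairs r ran from -0.32 (Aldoc with Ndrg1) to 0.97 (Slc16a3 with Bnip3), with a median of 0.56. Among 9584 genes whose log2 CPM averaged 3 or more, those most like Bnip3 were Idh1 (r = 0.967), Nrd1 (0.961), Tpi1 (0.955), Rab3d (0.951) and Echs1 (0.949). Most like the mean of the 10 genes were Tpi1 (0.980), Rab3d (0.972), Echs1 (0.962), Pfkl (0.954) and Eef1a1 (0.949). Tpi1 and Pfkl encode glycolytic enzymes. These are descriptions over 14 means, with no test.

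The other glycolytic genes were mixed in B16 Ptpn2ko cells. Of 16 tested, IFNb lowered 8 and raised 3, IFNg lowered 9 and raised 3, and TNFa lowered 3 and raised 3. Of all tested genes, 27.7% were called under IFNb (13.0% lower), 59.4% under IFNg (30.4% lower) and 43.5% under TNFa (22.4% lower). The phosphofructokinase subunit Pfkl fell by 0.73 under IFNb, 0.61 under IFNg and 1.33 under IFNgTNFa. Pfkm fell by 0.69 under IFNg and 1.11 under IFNgTNFa. The hexokinases, which trap glucose in the cell, moved the other way under IFNg, with Hk2 at 0.90 ± 0.07 and Hk1 at 0.71 ± 0.06 above vehicle. IFNgTNFa lowered 10 and raised 5, where 76.7% of all tested genes were called and 37.6% were called lower. Under it Slc16a1 (MCT1, a second lactate transporter) was at -1.30 ± 0.08. TNFa alone raised Eno2 by 1.08 ± 0.14 and Gapdh by 1.06 ± 0.15.

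Of 20 other HIF targets tested in Ptpn2ko B16 cells, IFNb lowered 10 and raised 1, IFNg lowered 11 and raised 4, and IFNgTNFa lowered 12 and raised 5. Of all tested genes, 27.7% were called under IFNb (13.0% lower), 59.4% under IFNg (30.4% lower) and 76.7% under IFNgTNFa (37.6% lower). The oxygen-sensing hydroxylases Egln3 and Egln1 were among the largest falls: Egln3 was at -2.14 ± 0.54 under IFNb, -2.09 ± 0.52 under IFNg and -2.99 ± 0.59 under IFNgTNFa, and Egln1 at -1.51 ± 0.08 under IFNg and -2.63 ± 0.09 under IFNgTNFa. Ddit4, an inhibitor of mTORC1, fell by 0.69 under IFNb and 1.45 under IFNg but rose by 0.74 under TNFa. The medians of this list were -0.27 under IFNb, -0.48 under IFNg and -0.56 under IFNgTNFa, beside 0.01, -0.01 and 0.03 over all tested genes.

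Egln1 and Egln3, which also act on HIF, were counted above among the HIF targets. Among 11 other genes that encode HIF subunits or act on them, IFNb lowered 1, Siah2 (-0.52 ± 0.14), and raised 0. IFNg raised 3 (Cul2 0.49, Egln2 0.37 and Vhl 0.22) and lowered 0. IFNgTNFa lowered 6 and raised 4, with Hif1a at -0.87 ± 0.09 and Epas1, which encodes HIF-2 alpha, at -1.46 ± 0.16. TNFa lowered 6, Hif1a among them (-0.46 ± 0.08), and raised 1, Egln2 (0.23 ± 0.08), a gene named after its value was seen. Of 15 genes of pyruvate entry and respiration, IFNg lowered 7 and raised 2, and Pdk3, another pyruvate dehydrogenase kinase, rose by 1.07 ± 0.08 under IFNg and by 1.53 ± 0.07 under IFNgTNFa while Pdk1 fell. The E1 subunit of 2-oxoglutarate dehydrogenase, Ogdh, fell by 0.38 under IFNb, 0.49 under IFNg and 0.90 under IFNgTNFa. In the same contrasts 27.7% of all tested genes were called under IFNb, 59.4% under IFNg, 76.7% under IFNgTNFa and 43.5% under TNFa. Called lower were 13.0%, 30.4%, 37.6% and 22.4%, in the same order. The share called higher is not given here. The lists were not tested against these shares, so their counts are not read as a trait of the lists.

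**Figure D3:**
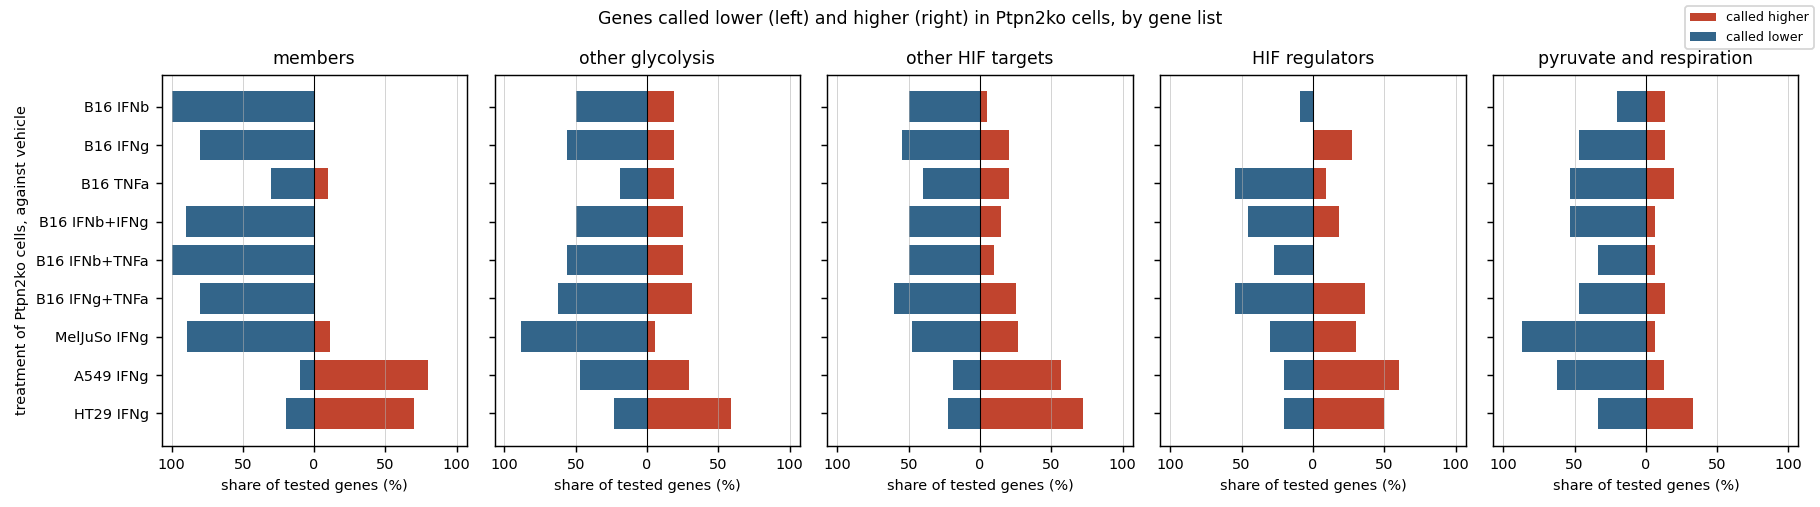
Share of each gene list called lower and called higher (edgeR adjusted p under 0.05) in the Ptpn2ko contrasts of B16 cells against vehicle and in the IFNg contrast of MelJuSo, A549 and HT29 cells. All 10 genes fell under IFNb in B16, where 8 of the 16 other glycolytic genes and 10 of the 20 other HIF targets fell. Of all tested genes 13.0% were called lower there.

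MelJuSo, the human melanoma line with all 7 melanocyte markers, had 8 of 9 genes lower and VEGFA higher after IFNg in Ptpn2ko cells, where 54.6% of tested genes were called, 27.4% lower and 27.2% higher. ALDOC had 29.0, 25.4 and 28.2 CPM in Ptpn2ko IFNg libraries against 80.5, 81.0 and 82.5 CPM in Ptpn2ko vehicle libraries, a fall of 1.57 ± 0.07 (edgeR adjusted p = 8.3e-40). LDHA had 737, 767 and 751 CPM in Ptpn2ko IFNg libraries and fell by 0.74 ± 0.03 (edgeR adjusted p = 2.2e-40). NDRG1 (-0.96), PDK1 (-0.83), BNIP3 (-0.76), SLC16A3 (-0.72), PGK1 (-0.67) and SLC2A1 (-0.24) fell as well. VEGFA went the other way, with 218, 239 and 232 CPM in Ptpn2ko IFNg libraries against 128, 122 and 130 CPM in Ptpn2ko vehicle libraries, a rise of 0.86 ± 0.05 (edgeR adjusted p = 2e-19). The median over the 9 genes was -0.74, beside 0.01 over all tested genes.

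In Control MelJuSo cells IFNg lowered 3 of the 9 genes, where 11.5% of tested genes were called. These were NDRG1 (-0.32), ALDOC (-0.28) and SLC2A1 (-0.16), and NDRG1 was not called without Control vehicle replicate 2 (-0.23, edgeR adjusted p = 0.093). The remaining 6 lay between -0.08 and -0.04. In vehicle cells edgeR called 0 of 9 genes between genotypes, where 1.64% of tested genes were called, with 0 at an unadjusted p under 0.05 and 0 by DESeq2, and the differences ran from -0.05 to 0.14. Under IFNg 7 were lower and VEGFA was higher in Ptpn2ko than in Control cells, where 51.2% of tested genes were called. ALDOC differed by -1.29, PDK1 by -0.73, LDHA by -0.69, BNIP3 by -0.64, NDRG1 and PGK1 by -0.57 each, SLC16A3 by -0.54 and VEGFA by 0.89, and SLC2A1 (-0.04) was not called. The interaction was called lower for 7 and higher for 1, where 35.5% were called. It was -1.29 ± 0.09 for ALDOC, -0.77 for PDK1, -0.70 for BNIP3, -0.69 for LDHA, -0.68 for SLC16A3, -0.64 for NDRG1, -0.60 for PGK1 and 0.94 ± 0.08 for VEGFA. SLC2A1 was the 1 gene not called (-0.08 ± 0.05, edgeR adjusted p = 0.27).

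**Figure D4:**
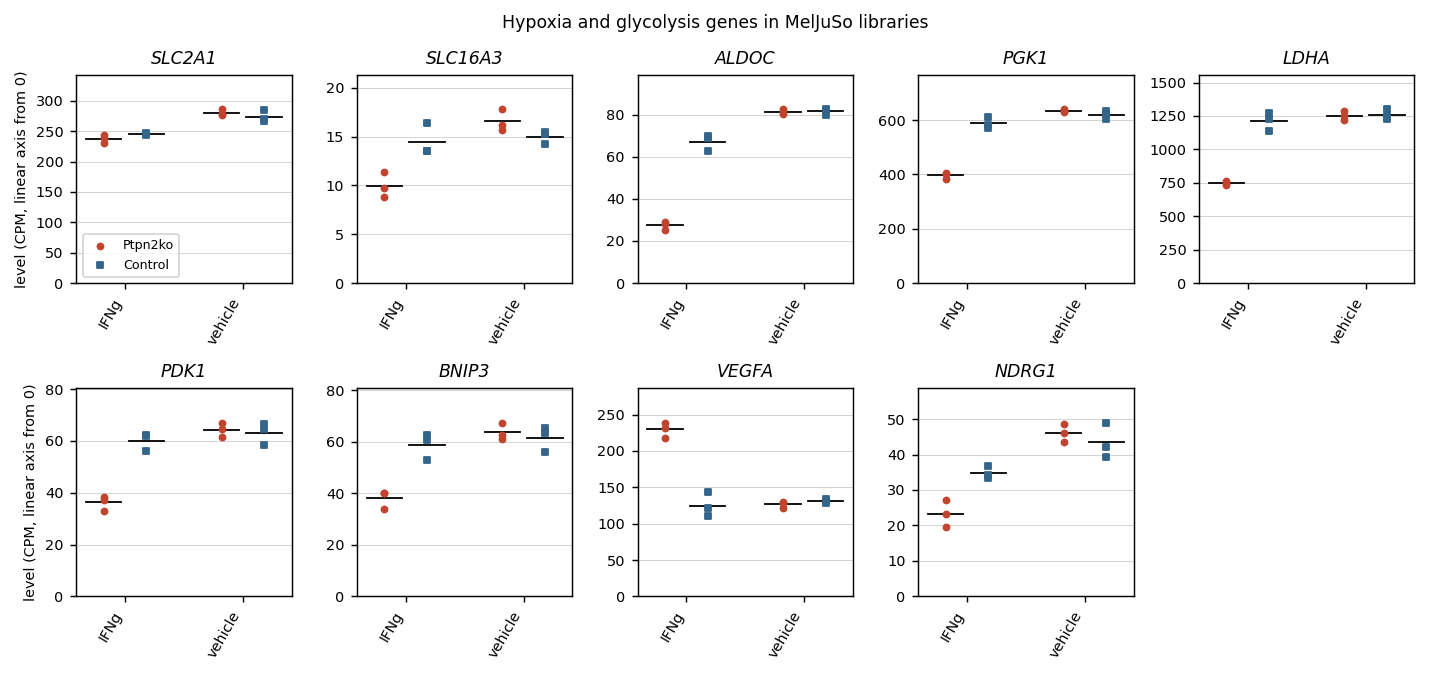
CPM of the 9 tested genes in every MelJuSo library, with IFNg left of vehicle and Ptpn2ko left of Control; short lines are group means. The 3 Ptpn2ko IFNg libraries lie below all others for ALDOC (25.4 to 29.0 CPM) and above all others for VEGFA (218 to 239 CPM).

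The other lists differed in Ptpn2ko MelJuSo cells, where 27.4% of all tested genes fell and 27.2% rose after IFNg. Of 17 other glycolytic genes, 15 fell and 1 rose, with GPI at -0.70 ± 0.04, TPI1 and PFKM at -0.59 and ENO1 at -0.53. Of 19 other HIF targets, 9 fell and 5 rose, among them SLC2A3 (GLUT3, 1.06 ± 0.08) and DDIT4 (1.03 ± 0.10). BNIP3L, a relative of BNIP3, fell by 0.75. Of 15 genes of pyruvate entry and respiration, 13 fell, with PPARGC1A, a coactivator of mitochondrial genes, at -1.43 ± 0.05, while PDP1, the phosphatase that reactivates pyruvate dehydrogenase, rose by 0.90 ± 0.04. EPAS1 fell by 1.15 ± 0.13. The list medians were -0.37 for glycolysis, -0.12 for HIF targets and -0.43 for pyruvate and respiration, beside 0.01 over all tested genes.

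In A375 the vehicle libraries go against their labels, so genotypes are named as labelled and values for the pooled labels are given. Over the pooled labels, IFNg lowered 5 of 10 genes and raised 2, where 57.7% of tested genes were called. ALDOC had 27.4, 28.5 and 24.8 CPM in IFNg libraries labelled Ptpn2ko and 11.1, 11.4 and 7.41 CPM in IFNg libraries labelled Control, all below the 81.6 to 117 CPM of the 5 vehicle libraries. It fell by 2.47 ± 0.31 (edgeR adjusted p = 5.2e-05). CA9 fell by 2.24 ± 0.44, LDHA by 0.54 ± 0.04, PDK1 by 0.50 ± 0.10 and PGK1 by 0.33 ± 0.04. SLC16A3 rose by 0.71 ± 0.08 (edgeR adjusted p = 6.9e-06) and VEGFA by 1.19 ± 0.30 (edgeR adjusted p = 0.0053), both opposite in sign to ALDOC. NDRG1 (0.16) and BNIP3 (-0.04) were not called.

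Split by label, 6 genes fell and 2 rose in the libraries labelled Ptpn2ko, where 64.8% of tested genes were called, and 5 fell and 2 rose in those labelled Control, where 66.0% were called. The gene that differed was SLC2A1, at -0.79 ± 0.04 in libraries labelled Ptpn2ko and 0.01 ± 0.04 in those labelled Control, and its pooled value was not called (-0.36, edgeR adjusted p = 0.063). VEGFA rose by 0.32 ± 0.04 in libraries labelled Ptpn2ko and by 2.24 ± 0.05 in those labelled Control. In libraries labelled Ptpn2ko ALDOC was at -1.80, CA9 at -1.74, PDK1 at -0.78, LDHA at -0.49 and PGK1 at -0.32. In libraries labelled Control ALDOC was at -3.46, CA9 at -3.12, LDHA at -0.62, PGK1 at -0.34 and PDK1 at -0.28. SLC16A3 rose by 0.70 in libraries labelled Ptpn2ko and by 0.76 in those labelled Control, and BNIP3 and NDRG1 were not called in either. Between labels, 2 genes were higher and 2 lower in vehicle libraries labelled Ptpn2ko, where 21.1% were called, and 2 higher and 3 lower in IFNg libraries labelled Ptpn2ko, where 50.8% were called. Under IFNg these were ALDOC (1.39), CA9, VEGFA (-0.97), SLC2A1 (-0.68) and PDK1 (-0.47), with the other 5 at -0.11 to 0.15, and in vehicle libraries the 6 genes not called lay between -0.08 and 0.54. The interaction was called for VEGFA (-1.92), ALDOC (1.66), SLC2A1 (-0.80), PDK1 (-0.50) and LDHA, where 47.1% were called, and the other 5 values ran from -0.50 ± 0.37 (NDRG1) to 1.38 ± 0.80 (CA9). The vehicle differences of ALDOC (-0.27), LDHA (-0.09) and SLC2A1 (0.12) were not called by DESeq2, which left 1, VEGFA (0.95 ± 0.06), and each was lost without the library labelled Control vehicle replicate 3 (-0.21, -0.08 and 0.13, edgeR adjusted p = 0.056, 0.20 and 0.058). LDHA was also lost without Ptpn2ko vehicle replicate 2 or 3, and SLC2A1 without Ptpn2ko vehicle replicate 1 or 3 or Control vehicle replicate 2 (edgeR adjusted p = 0.053 to 0.19). The IFNg difference of CA9 (1.92 ± 0.68, edgeR adjusted p = 0.049) was lost without any 1 of its 6 libraries (1.73 to 2.02, edgeR adjusted p = 0.082 to 0.13). The LDHA interaction (0.13) was lost without the vehicle libraries labelled Ptpn2ko replicate 2 (0.10, edgeR adjusted p = 0.058) or Control replicate 3 (0.11, edgeR adjusted p = 0.067), and by DESeq2 (adjusted p = 0.079).

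In A549, IFNg raised 8 of 10 genes and lowered NDRG1 in Ptpn2ko cells, where 53.5% of tested genes were called, 26.8% higher and 26.7% lower. SLC16A3 had 63.8 and 58.4 CPM in Ptpn2ko IFNg libraries against 43.5 and 38.7 CPM in Ptpn2ko vehicle libraries, a rise of 0.57 ± 0.09 (edgeR adjusted p = 1.5e-10). VEGFA had 120 and 114 CPM in Ptpn2ko IFNg libraries against 47.7 and 50.6 CPM in Ptpn2ko vehicle libraries, a rise of 1.25 ± 0.07. CA9 (2.03 ± 0.26) and ALDOC (1.52 ± 0.26) rose from low levels, with 10.8 and 10.4 CPM of CA9 and 8.15 and 9.66 CPM of ALDOC in Ptpn2ko IFNg libraries. PGK1 rose by 0.35 and SLC2A1 by 0.20. NDRG1 fell by 0.61 ± 0.06 (edgeR adjusted p = 4.3e-25). The small rises of BNIP3 (0.20, edgeR adjusted p up to 0.21) and LDHA (0.09, 0.06 with edgeR adjusted p = 0.12 without Ptpn2ko vehicle replicate 2) were lost on leaving out single libraries, in BNIP3 any 1 of Ptpn2ko IFNg replicate 1 and both Ptpn2ko vehicle libraries.

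In Control A549 cells IFNg raised 3 genes (CA9, VEGFA and SLC2A1) and lowered 2 (NDRG1 and LDHA), where 47.6% of tested genes were called. VEGFA rose by 1.10 ± 0.07, CA9 by 1.40 ± 0.37 and SLC2A1 by 0.19, NDRG1 fell by 0.40 and LDHA by 0.08. ALDOC (0.62 ± 0.31), PGK1 (0.05), SLC16A3 (-0.03), BNIP3 (-0.03) and PDK1 (-0.02) were not called. CA9 was not called without Control IFNg replicate 1 (0.68, edgeR adjusted p = 0.31), SLC2A1 without Control vehicle replicate 1 (0.13, edgeR adjusted p = 0.088) and LDHA without either Control IFNg library or Control vehicle replicate 2 (-0.05 to -0.07, edgeR adjusted p = 0.084 to 0.25). Under IFNg 7 genes were higher and NDRG1 was lower in Ptpn2ko than in Control cells, where 24.3% were called. SLC16A3 was 0.75 ± 0.09 higher, CA9 1.40 ± 0.24, ALDOC 0.98, PGK1 0.33, BNIP3 0.25, SLC2A1 0.24 and LDHA 0.19, and NDRG1 differed by -0.16; PDK1 (0.28 ± 0.16) and VEGFA (0.13) were not called. BNIP3 was lost without Ptpn2ko IFNg replicate 1 (0.20, edgeR adjusted p = 0.16) or Control IFNg replicate 2 (0.22, edgeR adjusted p = 0.11). NDRG1 was lost without Ptpn2ko IFNg replicate 2 (-0.11, edgeR adjusted p = 0.33) or Control IFNg replicate 2 (-0.09, edgeR adjusted p = 0.51), and DESeq2 did not call ALDOC (adjusted p = 0.072), BNIP3 or NDRG1. The interaction was called for SLC16A3 (0.60 ± 0.13), PGK1 (0.31 ± 0.05) and LDHA (0.16 ± 0.04), where 11.3% were called, and the other 7 values ran from -0.21 (NDRG1) to 0.89 ± 0.42 (ALDOC). In vehicle cells SLC2A1 (0.24 ± 0.05) was the 1 gene called, where 2.95% were called and the other 9 genes lay between -0.02 and 0.77 ± 0.41 (CA9), and it was lost by DESeq2 (adjusted p = 0.060) and without Control vehicle replicate 1 (0.17, edgeR adjusted p = 0.19).

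Of 21 other HIF targets in Ptpn2ko A549 cells IFNg raised 12 and lowered 4, with a median of 0.15, where 26.8% of all tested genes rose and 26.7% fell. STC2, a secreted glycoprotein, rose by 3.40 ± 0.07, DDIT4 by 1.54 ± 0.04, VLDLR by 1.18 ± 0.08 and the collagen-modifying enzyme PLOD2 by 0.81 ± 0.04. In Control A549 cells 6 of the 21 rose and 10 fell, with a median of -0.11, where 23.9% of all tested genes rose and 23.7% fell. HK2 rose by 1.76 ± 0.27, while 8 of 17 other glycolytic genes fell and 5 rose in Ptpn2ko cells. EPAS1 rose by 0.60 ± 0.03 and HIF1A by 0.48 ± 0.03.

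In HT29, IFNg raised 7 of 10 genes and lowered CA9 and PDK1 in Ptpn2ko cells, where 67.8% of tested genes were called, 33.3% higher and 34.5% lower. SLC16A3 had 316 and 279 CPM in Ptpn2ko IFNg libraries against 121 and 121 CPM in Ptpn2ko vehicle libraries, a rise of 1.30 ± 0.05 (edgeR adjusted p = 5.6e-31). VEGFA had 212 and 246 CPM in Ptpn2ko IFNg libraries against 57.0 and 63.6 CPM in Ptpn2ko vehicle libraries, a rise of 1.92 ± 0.07 (edgeR adjusted p = 3.3e-31). NDRG1 rose by 1.68 ± 0.14, ALDOC by 0.81 ± 0.18, PGK1 by 0.44 ± 0.04, LDHA by 0.42 ± 0.04 and SLC2A1 by 0.16 ± 0.04. CA9 fell by 1.42 ± 0.21 and PDK1 by 0.68 ± 0.12. BNIP3 was near the filter, at 0.797 to 1.89 CPM over all 8 libraries, and was not called (-0.42 ± 0.46).

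In Control HT29 cells 6 genes rose and 3 fell, where 59.4% of tested genes were called. SLC16A3 rose by 1.44 ± 0.06, NDRG1 by 1.14 ± 0.19 and VEGFA by 1.09 ± 0.07, while CA9 fell by 1.18 ± 0.17, PDK1 by 0.94 ± 0.13 and LDHA by 0.10 ± 0.04. SLC2A1 rose by 0.27, and BNIP3 was not called (1.06 ± 0.48). The call of ALDOC (0.57) ended without IFNg replicate 1 (0.42, edgeR adjusted p = 0.14) or vehicle replicate 2 (0.45, edgeR adjusted p = 0.098), that of LDHA without IFNg replicate 2 (-0.08, edgeR adjusted p = 0.20) or vehicle replicate 1 (-0.07, edgeR adjusted p = 0.19), and that of PGK1 (0.13) without Control vehicle replicate 2 (0.10, edgeR adjusted p = 0.081). DESeq2 did not call ALDOC (adjusted p = 0.098) or LDHA (adjusted p = 0.062). Control IFNg replicate 1 of HT29 carries a lung cell type label beside the HT29 line label. Over all HT29 libraries, this one included, EPCAM had 453 to 685 CPM and KRT20 250 to 518 CPM. In the lung line A549 they reached at most 7.61 and 0.963 CPM, so by these genes the library is like HT29. Under IFNg 5 genes were higher and CA9 was lower in Ptpn2ko than in Control cells, where 41.9% were called. NDRG1 was at 1.19, VEGFA at 0.83, SLC16A3 at 0.49, LDHA and PGK1 at 0.14 each and CA9 at -0.88, while BNIP3 (-0.72 ± 0.46), PDK1 (0.32), ALDOC (0.24) and SLC2A1 (0.05) were not called. In vehicle cells 3 were higher and 3 lower, where 21.1% were called, with NDRG1 at 0.64, SLC16A3 at 0.63 ± 0.06, SLC2A1 at 0.15, CA9 at -0.64, LDHA at -0.38 ± 0.04 and PGK1 at -0.17, and the other 4 between 0.00 and 0.76 ± 0.48 (BNIP3). DESeq2 did not call CA9 (adjusted p = 0.095) or NDRG1 (adjusted p = 0.12) in vehicle cells. The interaction was called for VEGFA (0.83 ± 0.10), LDHA (0.52 ± 0.05) and PGK1 (0.31 ± 0.06), where 19.1% were called, and the other 7 values ran from -1.48 ± 0.67 (BNIP3) to 0.55 ± 0.25 (NDRG1). Under IFNg the call of PGK1 ended without Ptpn2ko IFNg replicate 1 (0.09), that of CA9 without Control IFNg replicate 1 (-0.73) and that of LDHA without Control IFNg replicate 2 (0.11). In vehicle cells the call of CA9 ended without Ptpn2ko vehicle replicate 1 (-0.48), that of SLC2A1 without Ptpn2ko vehicle replicate 2 (0.10) and that of NDRG1 without Ptpn2ko vehicle replicate 2 (0.60) or Control vehicle replicate 2 (0.55), with edgeR adjusted p = 0.056 to 0.14 over these 7 values.

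Of 18 other HIF targets in Ptpn2ko HT29 cells IFNg raised 13 and lowered 4, with a median of 0.75, where 33.3% of all tested genes rose and 34.5% fell. ADM, which encodes the vasodilator adrenomedullin, rose by 3.63 ± 0.10, BHLHE40 by 3.46 ± 0.13 and CITED2 by 2.83 ± 0.11, and CA12, another carbonic anhydrase, fell by 3.15 ± 0.12. HIF1A rose by 1.33 ± 0.05. Of 17 other glycolytic genes 10 rose and 4 fell, with HK1 at 1.25 ± 0.04 and PFKP at 1.16 ± 0.05. PDP1 rose by 2.63 ± 0.06.

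**Figure D5:**
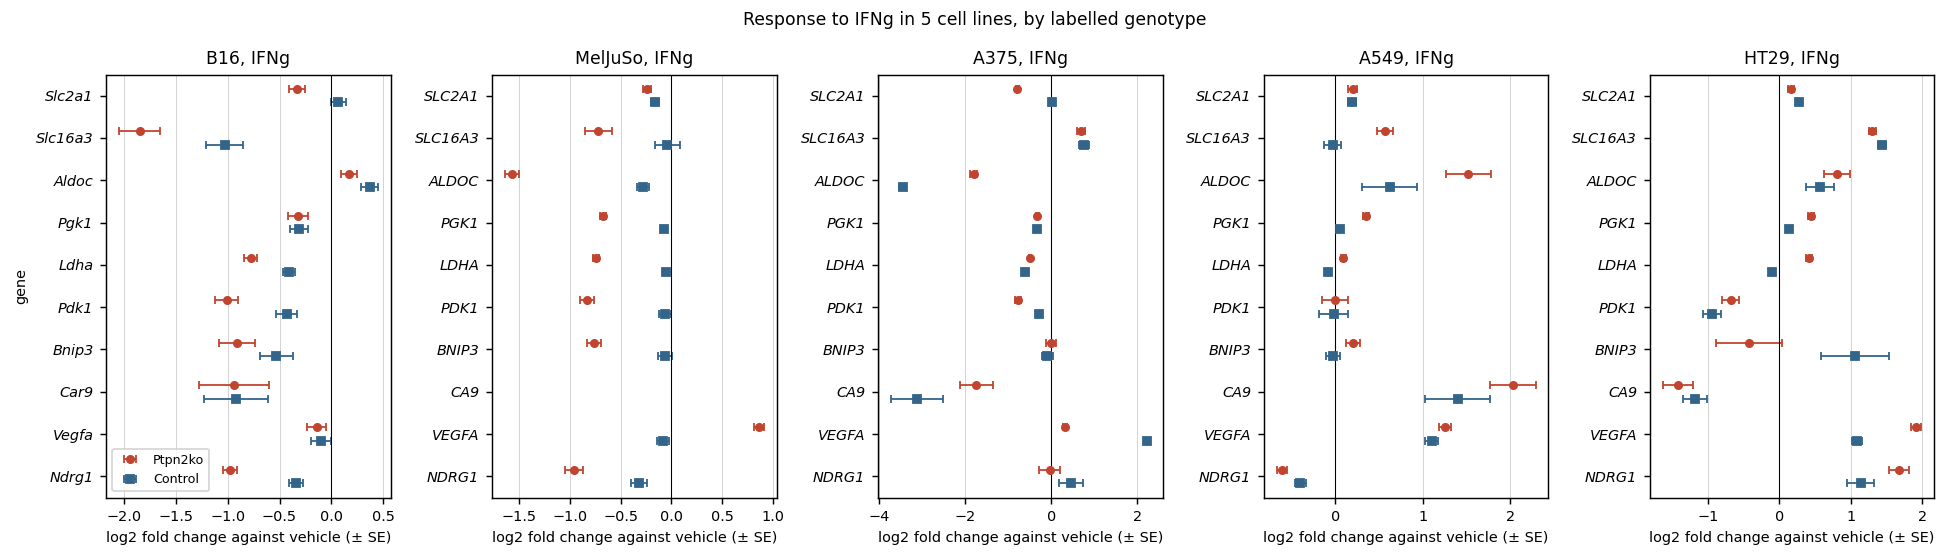
Log2 fold change of IFNg against vehicle (point) with its SE (bar) for each gene in the 5 lines, Ptpn2ko above Control. SLC16A3 lies at -1.85 in B16 and -0.72 in MelJuSo Ptpn2ko cells, and at 0.57 in A549 and 1.30 in HT29 Ptpn2ko cells. In the melanoma line A375 it rose under both genotype labels.

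Set side by side for IFNg in Ptpn2ko cells, the signs of single genes depended on the line. LDHA fell by 0.78 in B16, 0.74 in MelJuSo and 0.49 in the A375 libraries labelled Ptpn2ko, and rose by 0.09 in A549 and 0.42 in HT29. PDK1 fell in B16, MelJuSo, A375 and HT29 and was not called in A549 (0.00 ± 0.15). VEGFA rose in all 4 human lines and was not called in B16. NDRG1 fell in B16, MelJuSo and A549, rose in HT29 and was not called in A375. Each line was fitted on its own, so differences between lines were not tested.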

How the data were processed

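Gene counts of mouse B16 and human A375, A549, HT29 and MelJuSo cells were used as the authors deposited them, as raw counts per gene, 1 table per line. Reads were not used here. Per the submitters' processing notes the tools were bcl2fastq 2.17.1.14, Trimmomatic 0.33, Bowtie2 2.2.4, HTSeq 0.6.1p1 and DESeq2, with the builds mm10 and hg19. The gene annotation and strand setting used for counting: not given in the sources used here. Reads of Pgk1, Ldha, Aldoc and Bnip3 could be split with pseudogenes or related genes, so their levels are uncertain to that extent.

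Each line was fitted on its own with edgeR 4.0.16 (R 4.3.3): filterByExpr by group, TMM scaling, 1 mean per group over all libraries of the line, robust dispersions and quasi-likelihood F tests. Benjamini-Hochberg adjustment ran over the 11726 (B16), 13410 (A375), 13172 (A549), 12555 (HT29) and 12271 (MelJuSo) tested genes, with calls at an adjusted p under 0.05. CPM are counts per 1000000 counts of the TMM-scaled library. The fit was tested on simulated counts before use. Library totals and the number of libraries set the precision of every value.

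The 10 genes and the other lists (other glycolysis, other HIF targets, HIF regulators, pyruvate and respiration, and cell type markers) were chosen with earlier results of these data known. By the rule for names, the text gives all 10 genes in every comparison, each by its value or within a stated range, genes from among the 4 called per list with the largest fold change, Ptpn2 as a check, and the 5 genes most like Bnip3 and most like the mean of the 10. Levels per length use exon unions of GENCODE M21 on GRCm38. Same-numbered replicates were not paired in the fits: in B16, 14 of 273 same-numbered pairs had correlated deviations over 0.1, and none in the human lines. Their correlations ran from -0.35 to 0.38 in B16 and from 0.013 to 0.045 in HT29, so pairing by number was not excluded. Alternatives were RLE scaling, no filter, DESeq2 1.42.0, a replicate block, fits of the compared groups only, each library left out, removal of a length trend in B16, pooled A375 labels, and, chosen after seeing the data, leaving out the 5 B16 libraries that stood apart.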

Additional observations from a re-analysis of the deposited data

Results flagged for a closer look

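These results are listed because a test of the difference itself found that the response to a cytokine differed between Ptpn2ko and Control cells. Each test compared cells of the same line (edgeR interaction, adjusted p under 0.05). Positive values mean a higher log2 response in Ptpn2ko cells. Such calls were also made among all tested genes. In B16 cells their share was 21.5% for IFNg, 15.4% for IFNbIFNg and 26.3% for IFNgTNFa. For IFNg it was 35.5% in MelJuSo, 11.3% in A549, 19.1% in HT29 and 47.1% in A375. The genes below were not tested against these shares, so the calls are not read as a trait of these genes. No explanation was tested.

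In B16 cells the IFNg response was lower in Ptpn2ko cells for Slc16a3 (-0.82), Ndrg1 (-0.64), Pdk1 (-0.58), Slc2a1 (-0.41) and Ldha (-0.37). That of Slc16a3 was not called by DESeq2 (adjusted p = 0.10) or without any 1 of 7 of its 12 libraries. It contains the Control vehicle libraries behind the choice of Slc16a3, so it is not independent of that choice. With IFNbIFNg the response was lower for Ndrg1 (-0.50) and Ldha (-0.32), and with IFNgTNFa for Ldha (-0.71) and Pdk1 (-0.68). The IFNbIFNg call of Ldha ended without Ptpn2ko IFNbIFNg replicate 1 (-0.22, edgeR adjusted p = 0.11) or replicate 2 (-0.26, edgeR adjusted p = 0.066), and the IFNgTNFa call of Pdk1 without Control IFNgTNFa replicate 1 (-0.47, edgeR adjusted p = 0.061).

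In MelJuSo cells the IFNg response was lower in Ptpn2ko cells for ALDOC (-1.29), PDK1 (-0.77), BNIP3 (-0.70), LDHA (-0.69), SLC16A3 (-0.68), NDRG1 (-0.64) and PGK1 (-0.60), and higher for VEGFA (0.94).

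In A549 cells it was higher in Ptpn2ko cells for SLC16A3 (0.60), PGK1 (0.31) and LDHA (0.16), and in HT29 cells for VEGFA (0.83), LDHA (0.52) and PGK1 (0.31).

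In the A375 libraries the labelled genotypes differed for VEGFA (-1.92), ALDOC (1.66), SLC2A1 (-0.80), PDK1 (-0.50) and LDHA (0.13); PTPN2 in the vehicle libraries goes against these labels, so no direction between genotypes is drawn from them.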

How the results depend on the processing

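No value of the 10 genes changed sign while called under any alternative run. Single-gene calls against the alternatives: DESeq2 ended 19 and added 3 of 440, RLE scaling added 2 of 455, no filter ended 6 and added 14 of 455, fits of the compared groups only ended 2 and added 12 of 455, removal of the length trend ended 3 and added 6 of 260 and leaving out the 5 B16 libraries ended 2 and added 8 of 260. Leaving out single libraries ended 101 and added 40 of 2934. The labels do not say what a replicate number marks, and the main fits did not pair samples by it. A replicate block changed 1 call of 455, Car9 under TNFa in Control B16 cells (-0.54, edgeR adjusted p = 0.046). Counts of genes called that moved by over 1.5 times were, with DESeq2, 1 against 4 for A375 vehicle genotype labels, 5 against 8 for A549 genotype under IFNg and 0 against 1 for A549 vehicle genotype. With no filter 4 against 2 were called for the IFNgTNFa interaction in B16. With the compared groups only, 2 against 1 were called for vehicle genotype in B16, and without the 5 libraries 7 against 4 for TNFa in Ptpn2ko cells. Genotype differences of Slc16a3 and Bnip3 under IFNb and IFNbTNFa are given with no test and are left out of these moves. The single-gene totals above still include them. With single libraries left out the counts ran 1 to 5 for A375 vehicle genotype labels, 3 to 4 for IFNg in A549 Control cells (5 with all libraries), 0 to 1 for A549 vehicle genotype, and in B16 4 to 8 for TNFa in Control cells, 3 to 7 for genotype under IFNgTNFa, 0 to 1 for vehicle genotype, 1 to 2 for the IFNbIFNg and 1 to 4 for the IFNgTNFa interaction. The share of all tested genes called under each alternative run is not given here. These counts are therefore not to be read as a trait of the 10 genes. The cause of these moves was not tested.

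Depth limits CA9 in MelJuSo and BNIP3 in HT29, which lay near 0. Each genotype rests on 1 guide per line, and A375 genotype labels are uncertain.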
